A study of Mus musculus with 29 samples.

Results

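SIX6 is a homeodomain transcription factor of the SIX-family type, and its binding sites were mapped by chromatin immunoprecipitation and sequencing (ChIP-seq) in NIH-3T3 cells, a mouse embryonic fibroblast line. The sites described here are all peaks of the SIX6-HA list, and there were 6075 of them among 304922 peaks in the 28 lists of the series. The list was taken whole, without selection on any measured value. Of the 6075 peaks, 675 overlapped no peak of any other construct and are called SIX6-HA-only peaks, and the other 5400 are called shared peaks. The cells carried doxycycline-inducible lentiviral transgenes together with the transactivator rtTA3G, each transgene encoding a transcription factor with HA epitope tags at its C-terminus, and all lines were induced overnight with 500 ng/ml doxycycline before fixation and pull-down through the HA tag. The 23 other constructs included BHLHB8, BRACHYURY, CDX2, DLX1, DLX6, DUXBL, EBF1, FOXA1, HLF, MAX, NANOG, OCT4, PRR3, RHOX11, SOX15, SOX2, TEAD1, THAP4, TOX3 and ZFP319, each tagged with HA. They also included 2 mutant forms of FOXA1, called RR and SW in the labels, and a line with OCT4-HA in which a YPet fusion of SOX2 was made as well (SOX2-YPET OCT4-HA). Every list therefore comes from cells that made a transgenic protein in the same fibroblast line, and no list used here comes from uninduced cells. SOX2-HA, OCT4-HA, BHLHB8-HA and FOXA1-HA came with 2 lists each, and the other 20 constructs with 1. The deposited lists held positions only, so neither the depth behind a peak nor the identity of the cells could be checked from them.

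SIX-family proteins pair a homeodomain with a second conserved domain, through which they meet cofactors such as the EYA transactivators and the Groucho (TLE) corepressors. SIX6 and its close relative SIX3 act in the developing eye and in the hypothalamus and pituitary, where they are known to act with Groucho corepressors as repressors. The homeodomain of SIX-family proteins reads a core of TGATAC, which differs from the TAATTA that many other homeodomains prefer. In fibroblasts much of the open distal chromatin carries the sites of AP-1, the dimer of FOS and JUN proteins, and of RUNX factors.

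Sequences of SIX6-HA-only peaks are shown first, from the GRCm38 genome, with the bases of interest in capitals. The first 3 are the central 200 bp of SIX6-HA-only peaks that held the SIX-type core TGATAC at least 2 times, on either strand, so that it reads TGATAC or GTATCA, and capitals mark each match. Each name is that of the nearest protein-coding gene. The Sgk1 window, with 3 matches, held the most of any SIX6-HA-only window.
Sgk1, chr10:21920579-21920778, plus strand: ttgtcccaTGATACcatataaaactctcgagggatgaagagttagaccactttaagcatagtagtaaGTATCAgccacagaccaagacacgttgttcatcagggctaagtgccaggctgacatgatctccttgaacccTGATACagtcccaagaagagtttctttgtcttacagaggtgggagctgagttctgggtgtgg
Srsf1, chr11:88039216-88039415, plus strand: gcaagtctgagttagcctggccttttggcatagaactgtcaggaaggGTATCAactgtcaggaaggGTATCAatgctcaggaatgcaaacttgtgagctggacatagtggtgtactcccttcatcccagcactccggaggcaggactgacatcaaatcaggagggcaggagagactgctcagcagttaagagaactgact
Ghr, chr15:3487222-3487421, plus strand: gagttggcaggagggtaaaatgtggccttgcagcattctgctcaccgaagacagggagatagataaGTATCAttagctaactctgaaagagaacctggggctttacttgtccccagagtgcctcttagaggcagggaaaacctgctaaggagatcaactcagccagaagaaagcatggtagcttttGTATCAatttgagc
These windows lay in introns, 7791 bp upstream of a start site of Sgk1, a serum and glucocorticoid induced kinase, 8057 bp upstream of Srsf1, a splicing factor, and 15678 bp upstream of Ghr, the growth hormone receptor. Only 10 of the 675 SIX6-HA-only windows held 2 or more cores.

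A longer word that runs into the core was found in a larger share of these windows than of shared ones, as given below with its values, and it is shown for 9 of the 29 SIX6-HA-only windows that held it. It is a word of 10 bases, marked by capitals, that joins a GTAAT to the first bases of the SIX-type core, and each line gives 25 bases on both sides, turned so that the word reads forward. It was noticed after the data had been examined. The first 5 lines come from copies whose surroundings resembled each other and the last 4 from copies whose surroundings did not. In the Rin2 and Ptprd lines the word does not go on to the full core.
Pja2, chr17:64227379-64227438, plus strand: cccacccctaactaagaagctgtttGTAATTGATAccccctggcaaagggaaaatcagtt
Phf3, chr1:29816558-29816617, plus strand: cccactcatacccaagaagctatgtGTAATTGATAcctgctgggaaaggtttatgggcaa
Slc24a2, chr4:87455964-87456023, minus strand: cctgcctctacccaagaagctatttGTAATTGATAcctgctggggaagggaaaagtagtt
Kctd8, chr5:68916041-68916100, minus strand: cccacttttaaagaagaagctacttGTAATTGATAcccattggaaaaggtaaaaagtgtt
Acvr2a, chr2:48316758-48316817, plus strand: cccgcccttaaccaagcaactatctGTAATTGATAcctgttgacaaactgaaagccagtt
Cdkn2aip, chr8:47749533-47749592, plus strand: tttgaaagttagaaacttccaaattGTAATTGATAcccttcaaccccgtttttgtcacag
Irx5, chr8:92202146-92202205, minus strand: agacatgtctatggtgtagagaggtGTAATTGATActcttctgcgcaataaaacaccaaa
Rin2, chr2:145723315-145723374, minus strand: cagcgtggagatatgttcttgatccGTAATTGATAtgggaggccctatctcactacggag
Ptprd, chr4:78605317-78605376, minus strand: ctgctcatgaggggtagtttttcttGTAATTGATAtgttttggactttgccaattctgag
All 9 lay in introns or between genes, from 35608 bp (Cdkn2aip) to 2011049 bp (Ptprd) from the nearest protein-coding start site.

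SIX6-HA peaks were mostly found in company. A peak was shared with a median of 4 other constructs, 2605 peaks (42.9%) with 1 to 4, 2456 peaks (40.4%) with 5 to 9, and 339 peaks (5.58%) with 10 or more. The SIX6-HA-only peaks made up 11.1% (95% interval 10.3 to 11.9%, Clopper-Pearson). This and all later intervals cover counting error over peaks only. SIX6-HA had a single list, so no replicate error could be given and no difference between its peak classes was tested. As a guide to the spread between libraries, the corresponding share differed by 3.16 to 23.1 percentage points between the duplicate lists of the 4 duplicated factors. Among the 20 other lists of at least 500 peaks this share ran from 4.12% in TOX3-HA to 77.7% in CDX2-HA, with a median of 17.5%. In that range SIX6-HA lay toward the low end, with only 5 of these lists lower.

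The construct met most often was BHLHB8-HA, a basic helix-loop-helix factor with the longest list, which overlapped 4645 SIX6-HA peaks (76.5%, 75.4 to 77.5%). DLX6-HA followed with 61.2%, SOX2-HA with 59.5% and DLX1-HA with 51.2%. DLX1 and DLX6 are homeodomain factors of the Distal-less family, and SOX2 is an HMG-box factor. Next came SOX15-HA with 26.9%, EBF1-HA with 25.7%, FOXA1-HA with 23.1% and DUXBL-HA with 22.9%. The share was 14.7% for CDX2-HA, although the CDX2-HA list was longer than that of DLX6-HA (25278 against 20983 peaks). It was 2.57% for TEAD1-HA, the DNA-binding partner of the Hippo pathway coactivators, and 7.34% for ZFP319-HA, and these lists held 14959 and 14645 peaks. List length alone thus did not order the overlaps. For duplicated factors the overlap depended on the list, being 69.1% and 52.2% for the 2 lists of BHLHB8-HA, 58.5% and 22.1% for SOX2-HA, and 21.6% and 6.81% for FOXA1-HA.

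**Figure D1:**
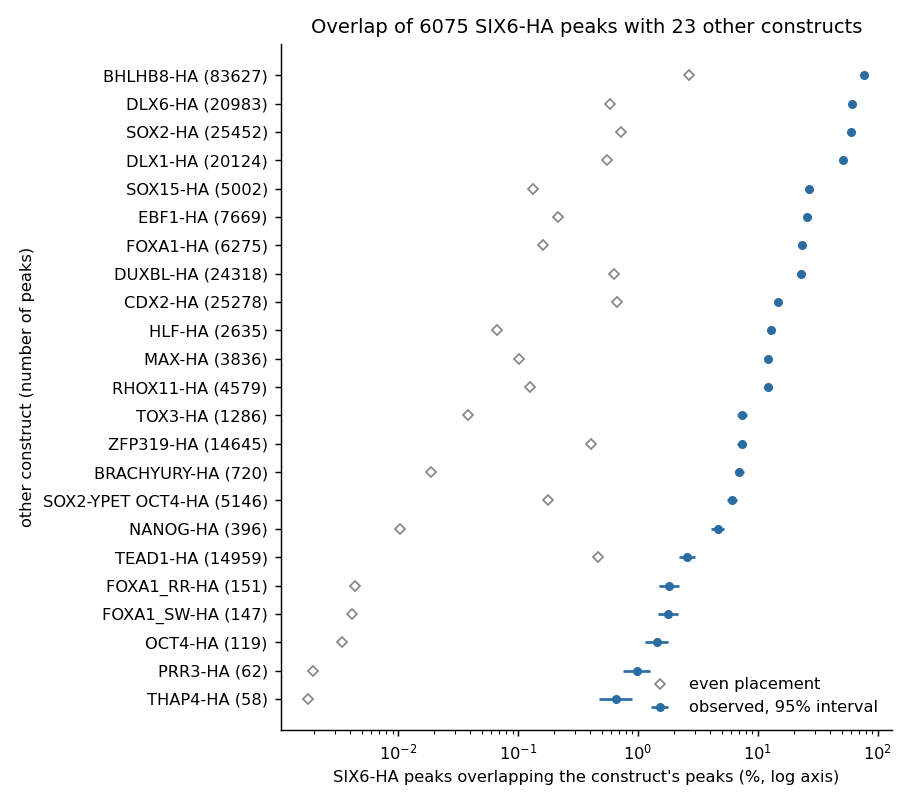
Share of the 6075 SIX6-HA peaks that overlapped each of the 23 other constructs (points, log axis in percent, bars are 95% intervals), with the share given by even placement of peaks of the same widths (open diamonds). Every construct lies right of its diamond, from 76.5% for BHLHB8-HA to 0.658% for THAP4-HA, and the gap is narrowest for TEAD1-HA.

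If peaks of the same widths were placed evenly along their chromosomes, 2.68% would meet a BHLHB8-HA peak and 0.580% a DLX6-HA peak. Set against this even placement, the observed overlap was 28.5 times higher for BHLHB8-HA, 105 times for DLX6-HA, 83.2 times for SOX2-HA and 201 times for SOX15-HA. The excess was lowest for TEAD1-HA (5.50 times), ZFP319-HA (18.1 times) and CDX2-HA (22.2 times), and it was highest for PRR3-HA (509 times), whose list had only 62 peaks. As seen from the other side, SIX6-HA peaks met 91.9% of the PRR3-HA peaks, 71.2% of the 396 NANOG-HA peaks, 58.9% of the 720 BRACHYURY-HA peaks and 32.6% of the SOX15-HA peaks, but 3.53% of the CDX2-HA peaks and 1.00% of the TEAD1-HA peaks. The shortest lists thus had most of their peaks inside the SIX6-HA list.

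Homeodomain factors were compared with the others for their overlap with SIX6-HA, itself a homeodomain factor. With the mutants, the co-expression line and constructs under 500 peaks left aside, the log2 ratio of observed to evenly placed overlap had a median of 6.53 for 5 homeodomain factors and 6.91 for 11 others. The difference of medians was -0.38 on the log2 scale, and the exact two-sided permutation test of the family labels over constructs gave p = 0.408. Among the homeodomain factors DLX6-HA and RHOX11-HA stood at 105 and 96.2 times and CDX2-HA and DUXBL-HA at 22.2 and 36.1 times the even share. Of the other classes BRACHYURY-HA, SOX15-HA, TOX3-HA, HLF-HA, FOXA1-HA, MAX-HA and EBF1-HA stood higher, at 119 to 370 times. SOX2-HA stood at 83.2, BHLHB8-HA at 28.5, ZFP319-HA at 18.1 and TEAD1-HA at 5.50 times. The higher lists held 720 to 7669 peaks, and the homeodomain lists other than RHOX11-HA 20124 to 25278. A link of this ratio to list length was not tested. With 5 constructs in the smaller class, a difference of this size could not be told from the spread among constructs.

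The sets of partners were many. The shared peaks fell into 1403 different sets of partner constructs, of which 901 were seen at a single peak. BHLHB8-HA alone was the commonest set with 310 peaks, and the set of BHLHB8-HA, DLX1-HA, DLX6-HA and SOX2-HA was next with 199 peaks. Among the 580 peaks shared with exactly 1 construct, SOX2-HA was the partner at 59, RHOX11-HA at 37, DLX6-HA at 30 and the OCT4-HA co-expression list at 29. The 310 peaks with BHLHB8-HA alone held the SIX-type core in 17.1% of windows (13.1 to 21.8%), close to the SIX6-HA-only peaks, and the E-box CAGCTG, a sequence that helix-loop-helix factors bind, in 20.3% (16.0 to 25.2%).

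**Figure D2:**
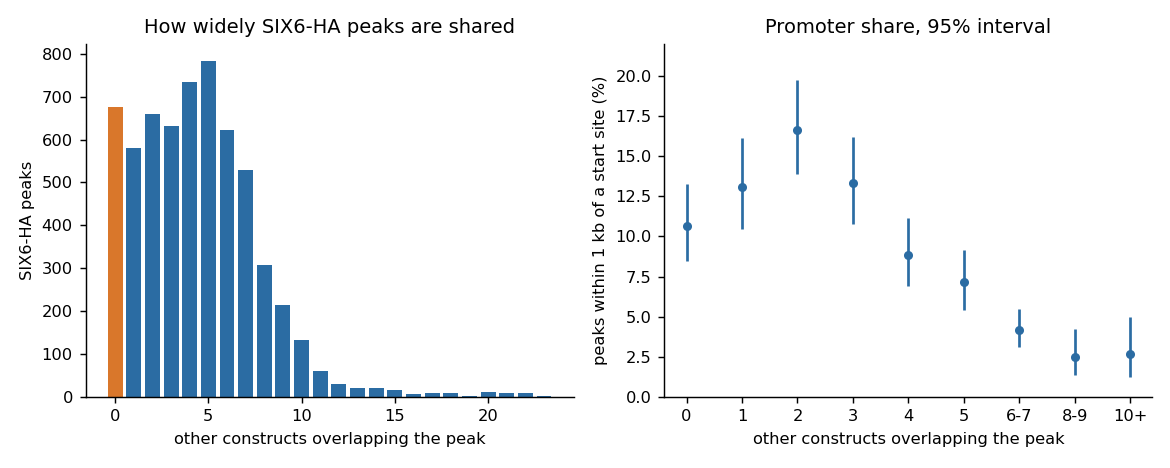
Left, number of SIX6-HA peaks by the number of other constructs that overlapped them, with the 675 SIX6-HA-only peaks in orange. Right, percent of peaks within 1 kb of a protein-coding start site in each class (bars are 95% intervals), which is highest at 2 other constructs (16.7%) and lowest at 8 or 9 (2.49%).

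Most SIX6-HA peaks lay far from genes' start sites. The median distance from a peak's midpoint to the nearest protein-coding transcript start was 30330 bp (28836 to 32016 bp), 533 peaks (8.77%) lay within 1 kb and are called promoter peaks, and 36.1% lay between 10 and 50 kb. Bases within 1 kb of such a start make up 2.44% of the sequenced genome. Beyond promoters, 42.1% of peaks were in introns, 44.2% between genes and 0.955% in coding exons. SIX6-HA-only peaks were promoter peaks in 10.7% of cases (8.44 to 13.2%) and shared peaks in 8.54% (7.81 to 9.31%), so the classes overlapped in their intervals. The SIX6-HA-only peaks also held more remote sites. Their share between 100 and 500 kb was 25.5% (22.2 to 28.9%) against 19.6% (18.5 to 20.6%) of shared peaks, and 6.52% against 2.11% lay beyond 500 kb.

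Among shared peaks the promoter share was lower where many constructs were present. It was 13.1% (10.5 to 16.1%) for peaks shared with 1 construct, 16.7% (13.9 to 19.7%) with 2, 7.14% (5.44 to 9.18%) with 5, and 2.49% (1.33 to 4.22%) with 8 or 9. Partners differed between promoter and distal peaks. TEAD1-HA overlapped 17.3% of the promoter peaks of SIX6-HA and 1.15% of the distal ones, and RHOX11-HA 23.5% and 11.1%. For SOX2-HA the shares were 26.6% at promoters and 62.6% at distal peaks, and for DLX6-HA 37.7% and 63.4%, while BHLHB8-HA differed little, with 74.7% and 76.6%. The lists of TEAD1-HA and RHOX11-HA were themselves rich in promoters (45.3% and 44.9% of their peaks), and the SOX2-HA lists were poor in them (4.37% and 3.07%).

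SIX6-HA-only peaks were narrower, with a median width of 203 bp against 269 bp, and the median went from 220 bp in peaks shared with 1 construct to 416 bp in those shared with 10 or more. The files give no height, and whether the narrow peaks were also weak could not be seen. Repeat-masked bases filled 22.3% of the SIX6-HA-only windows on average and 12.8% of the shared ones. The mean G and C content was alike, 49.3% and 49.1%, and both were above the 42.8% and 43.6% of control windows, which were taken 5 kb downstream and touched no peak of any list.

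The SIX-type core was more frequent in SIX6-HA peaks than in control windows. The central 200 bp held TGATAC in 789 of 6075 peaks (13.0%) and in 6.78% of control windows. In SIX6-HA-only peaks it was present in 119 of 675 windows, or 17.6% (14.8 to 20.7%), against 6.67% of control windows, and in shared peaks in 670 of 5400, or 12.4% (11.5 to 13.3%), against 6.79%. The longer form GGTATCA was found in 7.11% of SIX6-HA-only windows (5.29 to 9.32%), 3.15% of shared windows and 1.95% and 1.63% of their control windows. MEF3, the site TCAGGTT through which SIX-family factors are known to act in muscle, was no more frequent in either class (2.81% and 2.57%) than in control windows (3.41% and 3.03%). In 32817 RefSeq promoters the SIX-type core was present in 3.87% of windows of the same length, the 200 bases at their upstream end.

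No other list held it as often. Among the 20 other lists of at least 500 peaks, the SIX-type core share ran from 1.66% in TEAD1-HA to 8.10% in CDX2-HA, and it lay above that list's control windows only in CDX2-HA, by 8.10% against 7.25%. Duplicate lists of a factor differed by 0.229 to 1.42 percentage points, which is less than the gap between SIX6-HA and CDX2-HA. Of the peaks that were particular to 1 construct, those of CDX2-HA held the core in 8.54% of windows (controls 7.60%), of DUXBL-HA in 7.94% (controls 7.67%), of DLX1-HA in 7.85% (controls 6.44%) and of TEAD1-HA in 2.18% (controls 6.55%), all below the 17.6% of SIX6-HA. The homeodomain word TAATTA, by contrast, was rarer in SIX6-HA-only windows (1.78%, 0.922 to 3.08%) than in control windows (5.85%), as it was in shared windows (2.09% against 6.59%), and with control windows weighted to the same G and C content the controls stood at 3.00% and 3.21%.

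**Figure D3:**
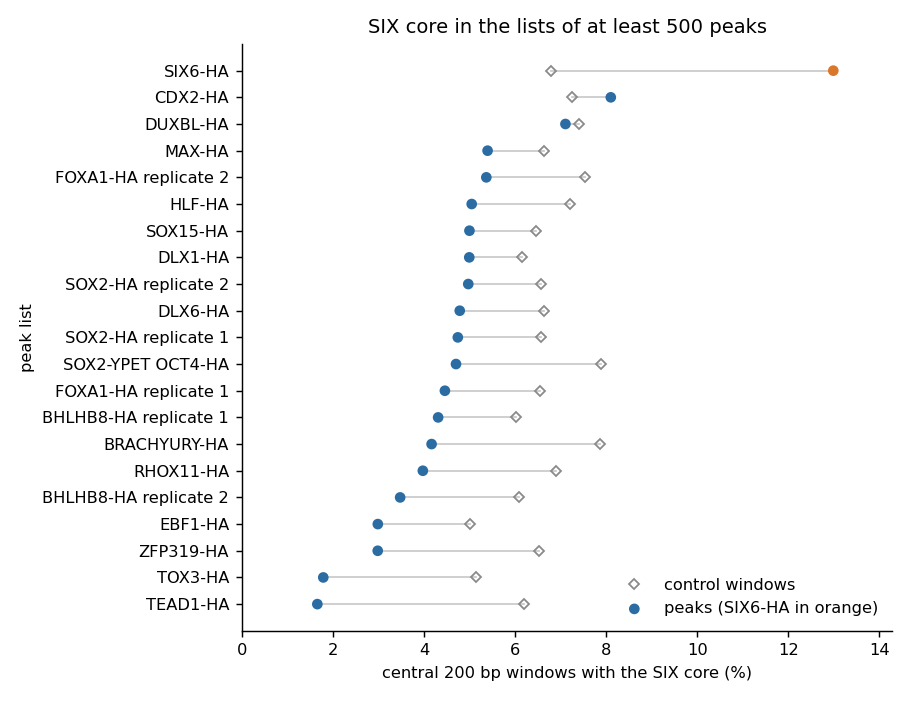
Percent of central 200 bp windows that hold the SIX-type core in each list of at least 500 peaks (circles, SIX6-HA in orange) and in that list's control windows (open diamonds). SIX6-HA lies at 13.0% against 6.78%, and in all other lists but CDX2-HA the circle lies left of its diamond.

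AP-1 and RUNX sites were more frequent than the SIX-type core in the shared peaks. The AP-1 site TGACTCA was present in 27.96% of shared windows (26.8 to 29.2%, controls 3.19%) and in 15.7% of SIX6-HA-only windows (13.0 to 18.7%, controls 2.44%). The RUNX site TGTGGTT was present in 16.98% and 11.3% of windows, against 5.31% and 5.04% of controls, and the E-box CAGCTG in 16.9% of shared windows (15.9 to 17.9%, controls 7.39%) and 8.74% of SIX6-HA-only windows (6.72 to 11.1%, controls 7.97%). Neither site was particular to SIX6-HA. Its whole list held AP-1 in 26.6% and RUNX in 16.3% of windows. In the 20 other lists of at least 500 peaks, AP-1 ran from 1.42% to 28.8% with a median of 21.0%. RUNX ran from 1.49% to 17.2% with a median of 8.73%. Core and AP-1 site could stand in the same window: in shared windows the core was present in 14.0% of those with AP-1 (12.3 to 15.8%) and in 11.8% of those without (10.8 to 12.9%). None of the SIX-type core, AP-1 and RUNX words was found in 62.2% of SIX6-HA-only windows and 52.3% of shared windows.

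Across the classes of sharing, the SIX-type core and the AP-1 site ran in opposite directions from SIX6-HA-only peaks to those shared with 8 or 9 constructs. The SIX-type core was present in 17.6% of SIX6-HA-only windows, 16.6% with 1 other construct, 16.1% with 2, 11.6% with 3 and 14.7% with 4. It was in 10.6% with 5, 11.7% with 6 or 7 and 9.58% with 8 or 9, so the fall was not steady. With 10 or more it was in 5.90% (3.64 to 8.96%), where control windows held it in 9.15% as they lie and in 5.65% when weighted to the same G and C content. The AP-1 site went from 15.7% through 24.4% with 2 constructs and 32.1% with 5 to 33.2% with 6 or 7, and then stood at 15.04% (11.4 to 19.3%) with 10 or more. RUNX went from 11.3% to 21.3% with 8 or 9 constructs and was 13.3% with 10 or more. The peaks shared with 10 or more constructs were the widest, as given above, and their AP-1 share lay within the interval of the SIX6-HA-only peaks.

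**Figure D4:**
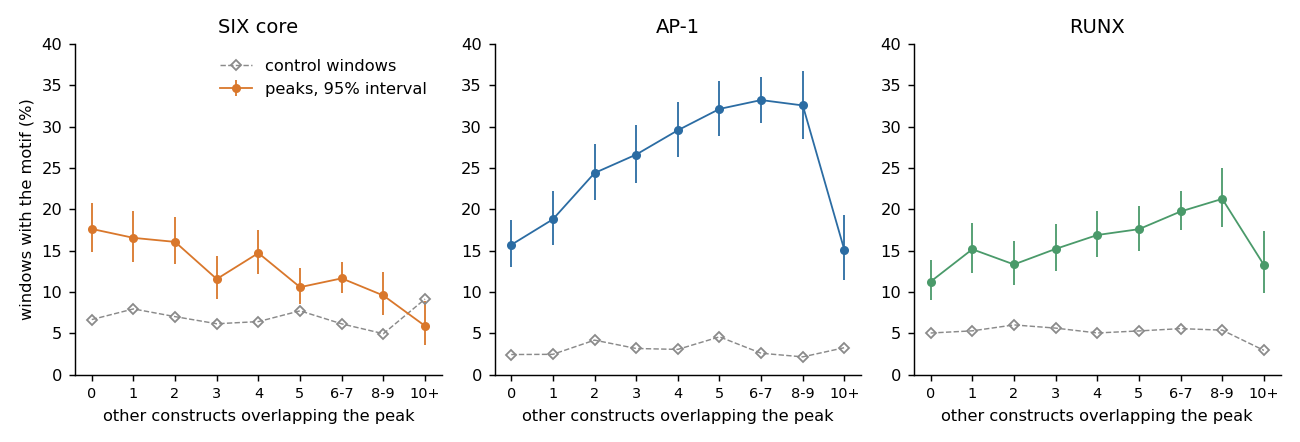
Percent of central 200 bp windows holding the SIX-type core, the AP-1 site or the RUNX site, by the number of other constructs overlapping the peak (bars are 95% intervals), with control windows as open diamonds. The SIX-type core goes unevenly from 17.6% down to 5.90%, while AP-1 goes from 15.7% up to 33.2% before it is 15.04% in the most shared class.

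The gap between SIX6-HA-only and shared peaks was seen within classes of peak width. Among the 2034 narrowest SIX6-HA peaks the SIX-type core was present in 15.9% of SIX6-HA-only and 11.2% of shared windows, among the 2024 of middle width in 20.7% (15.3 to 26.9%) and 12.8% (11.3 to 14.4%), and among the 2017 widest in 19.6% (9.82 to 33.1%) and 13.1%, so the direction was the same in each and the intervals were apart in the middle class. In the SIX6-HA-only class promoter and distal peaks were alike within their intervals: 15 of 72 (20.8%, 12.2 to 32.0%) held the core, against 17.2% of 603 distal peaks, whereas shared promoter peaks held it in 9.11% (6.65 to 12.1%). In windows that were mostly repeat, the core was present in 12.5% of the SIX6-HA-only windows (7.01 to 20.1%), with controls at 9.09%, and in 13.0% of the shared windows (9.86 to 16.7%), so the gap was not seen there.

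Partners differed in the motifs they were found with. SIX6-HA peaks that DLX1-HA also occupied held AP-1 in 35.0% of windows and those without DLX1-HA in 17.8%, and for DUXBL-HA the shares were 37.5% and 23.4%. With or without EBF1-HA the AP-1 shares were 26.3% and 26.7%, whereas the SIX-type core was present in 8.70% (7.35 to 10.2%) and 14.5% (13.5 to 15.5%). Low shares of both were seen in the 371 peaks shared with the OCT4-HA co-expression list, with AP-1 in 2.96% (1.49 to 5.24%) and the SIX-type core in 5.66% (3.54 to 8.52%), and in the 156 peaks shared with TEAD1-HA, with 8.97% and 3.21%. The 449 peaks shared with TOX3-HA held AP-1 in 17.8% and the core in 5.12% of windows.

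Matches to the SIX-type core were gathered at the middle of the peaks. SIX6-HA-only peaks had 14.4 core matches per 100 peaks in the central 100 bp and 5.04 in the 100 bp made of both flanks from 50 to 100 bp, a ratio of 2.85. At 300 to 500 bp from the midpoint there were 3.26 matches per 100 bp in 100 peaks. In shared peaks the central and flanking values were 8.74 and 4.69. AP-1 matches were spread more widely over the central 200 bp, with 9.04 in the centre and 7.70 in the flanks of SIX6-HA-only peaks (ratio 1.17). In shared peaks the values were 18.6 and 13.6 (ratio 1.37). Set against 300 to 500 bp, the ratio of the centre was 4.69 and 7.75 for AP-1 in SIX6-HA-only and shared peaks. For the core it was 4.41 and 3.32. RUNX was also gathered at the middle, with centre-to-flank ratios of 1.87 and 1.74, against 2.85 and 1.87 for the core.

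**Figure D5:**
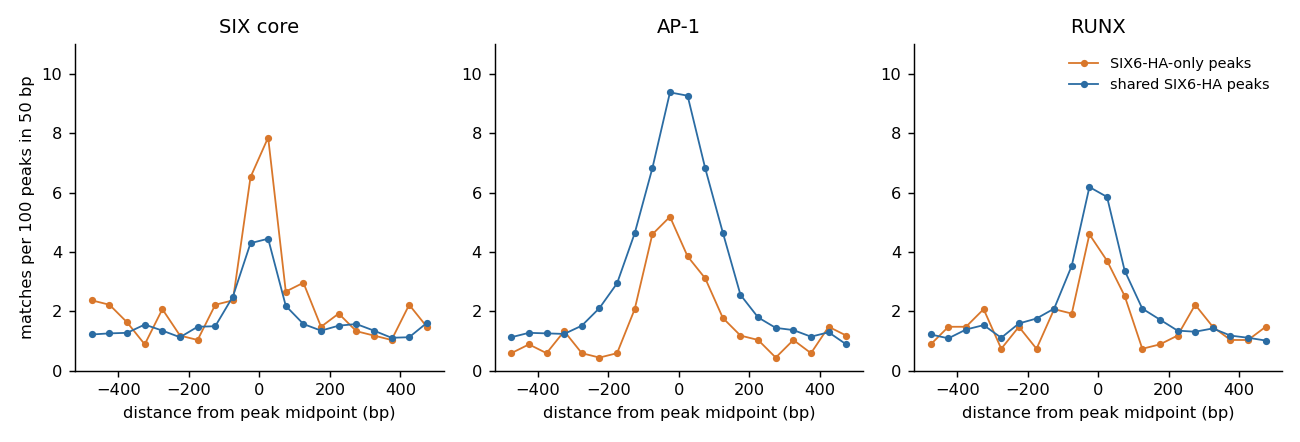
Matches per 100 peaks in bins of 50 bp from 500 bp on one side of the peak midpoint to 500 bp on the other, for the SIX-type core, AP-1 and RUNX sites, in SIX6-HA-only (orange) and shared (blue) peaks. The orange SIX-type core curve is highest in the central 100 bp, where it amounts to 14.4 matches per 100 peaks, and the AP-1 curve of shared peaks is the broadest.

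Among all words of 7 bases, ranked on odd-numbered chromosomes by their share in SIX6-HA-only windows minus control windows, the AP-1 site came first. On the remaining chromosomes it was present in 18.7% of 241 windows (14.0 to 24.2%) and 3.18% of controls. The other 9 words of the first 10 were on the remaining chromosomes in 6.22 to 11.6% of windows and 2.73 to 9.09% of controls, and 1 of them, CCTGGGA, was rarer than in its controls (7.88% against 9.09%). None of the 10 contained TGATAC or its reverse GTATCA.

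Among longer words ranked in the same way, the first at 8 bases, CTGAGTCA, held the AP-1 site. The first at 9 bases, AATTGATAC, held the SIX-type core, and those at 10 and 11 bases ended 1 base short of it. The word with the largest excess at 10 bases on odd-numbered chromosomes was GTAATTGATA, printed above, in 15 of 434 windows (3.46%). On the remaining chromosomes it was in 14 of 241 windows (5.81%, 3.21 to 9.55%), and in none of 220 control windows. Over all chromosomes 29 SIX6-HA-only windows (4.30%, 2.90 to 6.11%) and 11 shared windows (0.204%, 0.102 to 0.364%) held it. Counted over its whole list, SIX6-HA had the word in 40 of 6075 windows (0.658%). In the whole lists of other constructs it was in at most 20 windows, those of CDX2-HA (0.0791% of 25278), and in 8 of the 83627 BHLHB8-HA windows. In 20 of the 29 copies the base after the word was C, which completes the SIX-type core. These copies are among the core matches counted next. Of 123 core matches in SIX6-HA-only windows whose neighbouring bases also lay in the window, G stood 5 bases before the core in 51.2%, T 4 bases before in 48.8% and A 2 bases before in 52.0%, against 31.9%, 28.3% and 27.2% of 681 matches in shared windows and 20.0%, 25.1% and 28.7% of 335 matches in control windows. Without the 20 matches that are part of the word, the shares in SIX6-HA-only windows were 41.7%, 38.8% and 42.7% of 103 matches. The word's remaining bases before the core were not more frequent there than in control windows. A stood 3 bases before in 27.2% and T 1 base before in 20.4%, against 29.0% and 26.6% of controls.

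The genome held 4872 copies of this word, and 43 of them (0.883%) lay in a SIX6-HA peak, 29 in SIX6-HA-only peaks, while 81 (1.66%) lay in a peak of another construct. Counted in the central windows of SIX6-HA peaks only, there were 40 copies of the word (0.821%) and 846 of 1011179 copies of the SIX-type core (0.0837%). The word was chosen for its excess in SIX6-HA-only windows on odd-numbered chromosomes, and these windows are counted here. The core was not chosen in this way, so the shares do not compare like with like. Copies with like surroundings were compared with the rest, in classes set after the values were seen. The most common base at each of 50 flanking positions was taken from the 15 SIX6-HA-only copies on odd-numbered chromosomes. Of the 29 copies 11 matched at 24 or more positions, but 6 of these 11 were among the copies that set the bases. The 14 SIX6-HA-only copies that did not set them had a median of 16.5 matches, and the median over all copies in the genome was 14. On the remaining chromosomes, whose copies were not used to set these bases, 5 of 95 copies with 24 or more matches (5.26%, 1.73 to 11.9%) lay in a SIX6-HA peak, 1 of 258 with 18 to 23 matches (0.388%) did, and 13 of 2180 copies with at most 17 matches (0.596%, 0.318 to 1.02%) did. These 5 were all in SIX6-HA-only peaks. No other construct had a peak at any of the 95 copies, and other constructs had a peak at 37 of the 2180 copies with at most 17 matches (1.70%). This did not hold on odd-numbered chromosomes. Other constructs had a peak there at 2 of 70 copies with 24 or more matches (2.86%) and at 32 of 2027 with at most 17 (1.58%). Of the 8 such high-matching copies in SIX6-HA peaks there, 6 were in SIX6-HA-only peaks. Copies with 24 or more matches share a longer stretch, as the first 5 lines printed above show. Of these lines, Pja2, Phf3 and Kctd8 come from copies that set the bases. The genome's repeat masking covered 1.05% of the 95 copies on the remaining chromosomes and none of the 29.

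SIX6-HA-only peaks were unevenly spread over the chromosomes. Chromosome 1 held 125 of them (18.5%) and 10.1% of all SIX6-HA peaks, and 9.49% of the peaks of other constructs. Chromosomes 5 and 15 held 64 and 65. Between 100 and 120 Mb of chromosome 1, a stretch singled out after the values were seen, 39 of 68 SIX6-HA peaks (57.4%, 44.8 to 69.3%) were SIX6-HA-only, 3 of these 39 held the SIX-type core and 1 the AP-1 site. In the first 20 Mb of chromosome 5, also singled out afterwards, there were 305 SIX6-HA peaks (5.02% of the list, against 2.11% of the peaks of other constructs), 43 of them SIX6-HA-only, and 7 and 1 of the 43 held the core and AP-1. Outside chromosomes 1, 5 and 15 the SIX6-HA-only peaks held the core in 18.5% (14.9 to 22.6%) and AP-1 in 21.1% of windows. Copy number in the SIX6-HA line was not tested, and the input chromatin was not used here. On chromosome X there were 23 peaks, or 0.141 per Mb, against 1.16 to 4.28 per Mb on the autosomes. Chromosome X held 0.379% of SIX6-HA peaks and 0.900% of the peaks of other constructs, so few peaks there were common to the series.

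Among SIX6-HA-only peaks the 2 widest stood apart, at 1531 and 1492 bp, since no other was over 500 bp. The second lay on Six6 itself, at chr12:72940164-72941655. It started 464 bp before the end of the first coding exon (72940056 to 72940627), spanned the whole intron of 999 bp and ended 29 bp inside the second coding exon, so that both of its edges lay in coding sequence. By start site the nearest protein-coding gene to its midpoint was 4930447C04Rik, 136 bp away, so no peak was assigned to Six6. No other construct had a peak there. In all, 10 of the 24 constructs had a peak on a coding exon of the gene they expressed, among them Dlx6 (3476 bp), Nanog (1535 bp) and Sox15 (660 bp), and SIX6-HA had none at those 9 other genes. The transgene carries the same coding sequence, and reads from it and from the resident gene cannot be told apart in a peak list. The widest SIX6-HA-only peak, on the ribosomal protein gene Rpsa at chr9:120128607-120130137, likewise had both edges inside exons.

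SIX6-HA peaks were assigned to the gene with the nearest start site. Of 21829 protein-coding genes 3324 (15.2%) had at least 1 SIX6-HA peak, 585 (2.68%) a SIX6-HA-only peak and 189 (0.866%) 5 or more peaks. A gene with a peak had a median of 1. Genes with a peak also had more room around them, a median of 117 kb nearest to their start sites, against 46.5 kb for all genes. The gene lists below name families and programmes known for SIX-family factors or for fibroblasts.

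Listed as the Six-Eya-Dach network were 17 genes, the factor's own family, its EYA and DACH cofactors, and Pax2, Pax3, Pax6, Pax8 and Sobp. None of the 17 had a SIX6-HA peak nearest to it, although their median room was 207 kb. Of 12 genes for Groucho corepressors and other SIX-family partners 4 had a peak, and 1 a SIX6-HA-only peak. Among the Groucho genes Tle4 had 3 peaks, 2 of them SIX6-HA-only and the nearest at 134570 bp, Tle1 had 1 at 182 bp from a start site, and Tle3 had 1. Of the 25 eye field and retina genes 5 (20.0%) had a peak, namely Mitf (3 peaks, 1 at 118 bp), Hes1 (2 peaks, 1 at 33 bp), Tbx3, Tbx5 and Meis1, and of the 19 pituitary and hypothalamus genes 1 (5.26%), Nr5a1. In the eye list Tbx5 and Hes1 (8% of its genes) had a SIX6-HA-only peak, without the core. Such a peak was found at 2.68% of all genes and at 8.33% of the Groucho list, which is 1 gene. Against the 15.2% of all genes, the share was lower in the network and pituitary lists, near it in the eye list and higher in the Groucho list (33.3%), by few genes in each. The genes of these lists also had more room than the 46.5 kb of all genes, with medians of 119 kb in the eye list, 129 kb in the Groucho list and 102 kb in the pituitary list.

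The fibroblast and matrix genes had the largest share of the lists, 17 of 28 (60.7%, against 15.2% of all genes), with 49 peaks between them and 1 gene (3.57%, against 2.68% of all genes) with a SIX6-HA-only peak. Fn1, the fibronectin gene, had 8 peaks, Col3a1 6 and Col5a1 5, and Dcn, the decorin gene, had 4 with 1 at 72 bp from a start site. Vim had 3 and Sparc 1, both with promoter peaks. Their peaks were shared with up to 10 constructs, and their median room was 131 kb. Of the 12 genes for AP-1 and related bZIP factors 5 had a peak (41.7%), Fos and Jun with 2 each and Fosb, Fosl1 and Fosl2 with 1, that of Fosb being SIX6-HA-only. Of 15 cell-cycle genes linked to SIX-family factors 4 (26.7%) had peaks: Myc had 9, 4 of them with the SIX-type core, Cdkn2b, an inhibitor of cyclin-dependent kinases, 7, Cdkn1a 2 and Ezr 1. The only gene of any list with a SIX6-HA-only peak that held the core was Myc, with a peak 503392 bp downstream of a start site at chr15:62490710-62490918. Of all 21829 protein-coding genes 117 (0.536%) had such a peak, so few were to be met in lists of this size. Of 15 muscle genes with known sites for SIX-family factors 2 (13.3%) had a peak, Myod1 and Slc4a4, the latter SIX6-HA-only, which is near the share of all genes. Of 13 Hippo pathway genes found in the annotation 3 (23.1%) had a peak, namely Tead1, Wwtr1 and Amotl1.

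The genes with the most peaks lay in wide stretches with few start sites. Zfp804b had 44 peaks, Zfp386 42, Gm5152 31, Gm15319 27, Steap1 24, Klf6 20, Sfi1 18, Gm21119 16, and Asap1 and Gm8871 15. The median room of these 10 genes was 603 kb. They differed in place and in sharing. Zfp804b, Gm5152, Steap1 and Gm8871 are in the first part of chromosome 5 described above, and so is the Wnt receptor gene Fzd1 with 12 peaks. Sfi1 had 18 peaks within 60.1 kb, none of them SIX6-HA-only, with up to 22 other constructs at a peak, and the peaks of Gm15319 and Gm21119 on chromosome 8 were shared with up to 21 and 12. Klf6, a Krüppel-like factor, had 3 SIX6-HA-only peaks among its 20 and Asap1, a regulator of Arf GTPases, 2 among its 15, and 1 of each held the SIX-type core. Close clusters were few: 24 clusters of 5 or more peaks, each peak within 10 kb of the next, held 162 peaks (2.67%), and 4378 peaks had no other within 10 kb.

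Counted by SIX6-HA-only peaks, Zfp804b came first with 8, followed by Cdh19 with 7, Cdh7 with 6, Gm5152 and Steap1 with 5, and Cntnap5a, Dsel, Fzd1 and Gm8871 with 4, and 4931408C20Rik had 3. Cdh7 and Cdh19 encode cadherins, and with Dsel and Cntnap5a they lie in the stretch of chromosome 1 given above. All 7 peaks of Cdh19 were SIX6-HA-only and none held the SIX-type core, and of the 7 of Cdh7, 6 were SIX6-HA-only and 1 held it. The room of these genes ran up to 2469 kb for Cntnap5a, so that many peaks at a gene were few for its length, 0.243 per 100 kb for Cntnap5a against 3.98 for Zfp804b.

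The 15 promoters with a SIX6-HA-only peak and the SIX-type core were those of Asap1, C2cd3, Cds2, Chn2, Creb3l2, Fbxo8, Hhipl1, Lipn, Mettl26, Neu3, Polr2i, Ranbp10, Slmap, Vars2 and Zfp260. The windows at Hhipl1 and Zfp260 held 2 cores each. At Chn2, a Rac GTPase-activating protein, the peak midpoint was 305 bp downstream of a start site and the window held the word of 10 bases. Creb3l2 encodes a membrane-bound bZIP factor, Neu3 a sialidase and Polr2i a subunit of RNA polymerase II, with midpoints 117, 18 and 84 bp from a start site. When no peak of another list was allowed within 1 kb, the promoter share of SIX6-HA-only peaks was 4.51% in place of 10.7%.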

How the data were processed

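The deposited files are peak lists with chromosome, start and end in bp on mm10, with no score, count or height. The authors aligned paired-end reads with STAR 2.5.3a, kept unique alignments, removed duplicates with Picard, called peaks in each sample with MACS2 2.1.1.20160309 and left out those meeting a peak of the input chromatin or a blacklisted region. Depth is unknown. Coordinates were checked against GRCm38.p6, whose sequence was used with GENCODE vM21 start sites, and all are given counting from 1. RefSeq promoters were used for one background share.

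Groups and replicate numbers came from the labels. An overlap was at least 1 shared bp, and duplicate lists of a factor were pooled. Motifs, both strands counted, were sought in the central 200 bp and in control windows 5 kb downstream that touched no peak. Even placement was computed for each peak's width on its chromosome, between the first and last peak of any list. Intervals are 95% Clopper-Pearson, or order statistics for medians. The only test was an exact permutation of family labels over constructs. Scripts were tested on simulated data. Work used Python 3.11.15, NumPy 2.4.6, SciPy 1.17.1 and Matplotlib 3.10.9.

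The members, gene lists and tests were chosen with earlier results of these data known. Genes named were the 10 with most peaks, the 10 with most SIX6-HA-only peaks, listed genes with a SIX6-HA-only peak holding the core, otherwise up to 4 per list by number of peaks, and Six6. Peaks named were the 5 widest SIX6-HA-only peaks and the 10 with most cores. Other names were chosen after their values were seen.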

Additional observations from a re-analysis of the deposited data

How the results depend on the processing

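The share of SIX6-HA peaks found in no other list (11.1%) was 7.27% with peaks of at least 300 bp in every list, 23.3% when an overlap had to be reciprocal over 50%, 6.93% with no other peak allowed within 1 kb, 9.52% without chromosomes 1, 5 and 15, and 13.1% to 14.1% when 1 list of each duplicated factor was left out. The promoter share of all peaks was 6.49% with peaks of at least 300 bp, 12.3% with a limit of 2.5 kb and 15.8% with start sites of all gene types. For SIX6-HA-only peaks it was 15.7% and 18.1% under the last 2 of these, 15.1% with reciprocal overlap, 4.51% with no other peak within 1 kb and 13.3% without chromosomes 1, 5 and 15. With start sites of all gene types the median distance was 10160 bp and the share of genes with a peak 7.72%, and that share was 7.03% with peaks of at least 300 bp and 12.04% with peaks within 50 kb. The excess of the SIX-type core over control windows in SIX6-HA-only peaks (10.96 percentage points) stayed within its interval under every alternative tried, and in shared peaks (5.61 points) it was 4.73 in central windows of 100 bp and 7.09 with control windows weighted to G and C content. The AP-1 excess of all peaks (23.5 points) was 24.8 with peaks of at least 300 bp, 14.1 in 100 bp windows and 25.1 without chromosomes 1, 5 and 15, and that of SIX6-HA-only peaks (13.3 points) was 22.4, 6.86 and 18.01. The excess of the word of 10 bases (4.30 points) was 1.26 with peaks of at least 300 bp and 2.54 with reciprocal overlap. Of 81 values under alternatives, 53 stayed within the interval or on the same side of the threshold. None changed direction, but shares and distances could not, since they are never negative. Nor could the excess of the word where no control window held it. The 18 alternatives that concern the word of 10 bases or leave out chromosomes were added after seeing the data. No paired analysis was possible because SIX6-HA has a single list without a replicate number.

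The lists give no depth and no height, so a SIX6-HA-only peak is one not called elsewhere, and its strength was not tested. Without a second SIX6-HA list, nothing here measures how many of the 675 would be found again.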
